A study of Rattus norvegicus with 6 samples.

Results

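The genes described here encode the proteins of the cytosolic ribosome, measured as RNA in rat hippocampus. They were taken by name from the deposited expression table: every row whose symbol has Rpl or Rps followed by a number, together with Rplp0, Rplp2 and Rpsa, leaving out the S6 kinases of the Rps6k family. The rule found 125 of 22062 rows, under 111 symbols. Core ribosomal proteins account for 73 of the rows, 43 of the large subunit and 30 of the small subunit. Another 13 rows are further copies under the symbol of a core gene, 18 are named as pseudogenes by a -ps suffix, and 20 are paralogues, 19 of them with an l added to the name of a ribosomal protein gene, and Rps4y2. The last row is Rps19bp1, a protein that binds Rps19 and is not itself a ribosomal protein. Rplp1, Rps26, Rpl13 and Rpl38 were not analysed here.

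SPS rats went through single prolonged stress, a procedure used as a rodent model of post-traumatic stress. They were held in restraint for 2 hours, made to swim for 20 minutes in water of 24 °C, given a rest of 15 minutes, and anaesthetised to loss of consciousness. Control rats were left unhandled in the home cage. All were of the Sprague Dawley strain, with 3 SPS and 3 Control samples of hippocampus, and the labels give no age, no sex and no time between stress and tissue collection. Nothing in the labels states that the samples come from separate animals. All p-values therefore rest on the spread between these samples, which may be technical.

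A ribosome is built from ribosomal RNA and a set of proteins that are made in nearly equal numbers, since each ribosome holds a single copy of most of them. Many of their mRNAs begin with a C followed by a run of pyrimidines, the terminal oligopyrimidine (TOP) motif, through which the kinase complex mTORC1 and the RNA-binding protein Larp1 regulate their translation. In neurons these mRNAs are found in processes as well as in the cell body, and ribosome number limits how much protein a cell can make. Their transcripts are short and abundant, and mammalian genomes hold many processed pseudogenes of them.

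The TOP motif can be read at the start of the genes. The 8 stretches shown were picked to include starts with a long run, a short run and no run. All but that of Rps7 belong to genes described further on. Each holds 15 bases on either side of the transcription start, on the strand of the gene, from the RefSeq promoter table of build GRCr8. Capitals mark a run of C followed by at least 4 letters that are each C or T, beginning within 3 bases of the start. Stretches of C and T that begin outside this limit are not marked, as upstream in Rpl35 and downstream in Rps28.
Rpl10 (chrX:157205835-157205864, plus strand): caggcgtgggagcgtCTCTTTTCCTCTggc
Rps23 (chr2:23814502-23814531, plus strand): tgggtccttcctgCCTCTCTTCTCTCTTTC
Rps7 (chr6:50999431-50999460, minus strand): tcgcgagagctgtgtCTCTTTCTaagccgg
Rplp0 (chr12:46718376-46718405, minus strand): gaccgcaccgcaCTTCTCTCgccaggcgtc
Rpl35 (chr3:43165907-43165936, minus strand): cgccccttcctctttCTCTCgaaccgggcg
Rps27a (chr14:107488927-107488956, minus strand): cctaaagggcggttCCTTCgacccggagac
Rpl11 (chr5:153560788-153560817, minus strand): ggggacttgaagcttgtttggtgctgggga
Rps28 (chr7:15311319-15311348, minus strand): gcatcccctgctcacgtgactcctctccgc
The run was searched on the strand of the gene only. It was found in 34 of the 58 core genes that matched the promoter table (58.6%), against 3755 of all 33469 promoters in it (11.2%). A match is a description of the letters at an annotated start, and where no run was found it says only that these letters are not at that position.

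Between 4081188 and 11148531 reads were counted per SPS library and between 4786503 and 11838770 per Control library. Genes encoded by mitochondria took 5.25% to 13.2% of the reads in SPS and 5.94% to 15.6% in Control, with the lowest share in replicate 3 of each group. All 6 markers of hippocampal granule and pyramidal neurons had reads, with Fibcd1 at 0 in some libraries, and they summed to between 876 and 2049 CPM in SPS and between 1025 and 2158 CPM in Control. CPM here are reads per 1e+06 after TMM scaling, a correction for library composition. SPS replicate 2 stood apart from the others by its choroid plexus markers (6 of 6 in the table), which summed to 32951 CPM there, to 37.7 and 37.4 CPM in SPS replicates 1 and 3, and to between 25.1 and 136 CPM in Control. Kl and Aqp1 were each at 0 in some libraries. Oligodendrocyte markers (5 of 5) were also highest in that library, at 27367 CPM, against 13930 and 11120 CPM in the other SPS libraries and 7523 to 11750 CPM in Control.

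The ribosomal protein rows together held 0.992%, 2.11% and 0.471% of all reads in SPS replicates 1, 2 and 3, and 1.19%, 1.82% and 0.464% in Control replicates 1, 2 and 3. The mean was 1.19% ± 0.836 in SPS and 1.16% ± 0.680 in Control (SD, n = 3 each), a difference of 0.0328 percentage points, smaller than the spread of either group. That difference turned with the libraries: it was −0.426 without SPS replicate 2 and −0.314 without Control replicate 3, and 0.392 without SPS replicate 3 and 0.366 without Control replicate 2. Within a group the library numbered 2 held 4.47 times the share of the library numbered 3 in SPS and 3.93 times in Control. By pair of equal number, SPS held 0.837, 1.16 and 1.02 times the share of Control. In FPKM, which divide by transcript length, the rows held 3.27%, 6.70% and 2.16% of the summed value in SPS and 3.58%, 5.86% and 1.99% in Control, in the same order of libraries. In bulk tissue, fewer cells of a type and less RNA per cell cannot be told apart in such shares.

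**Figure D1:**
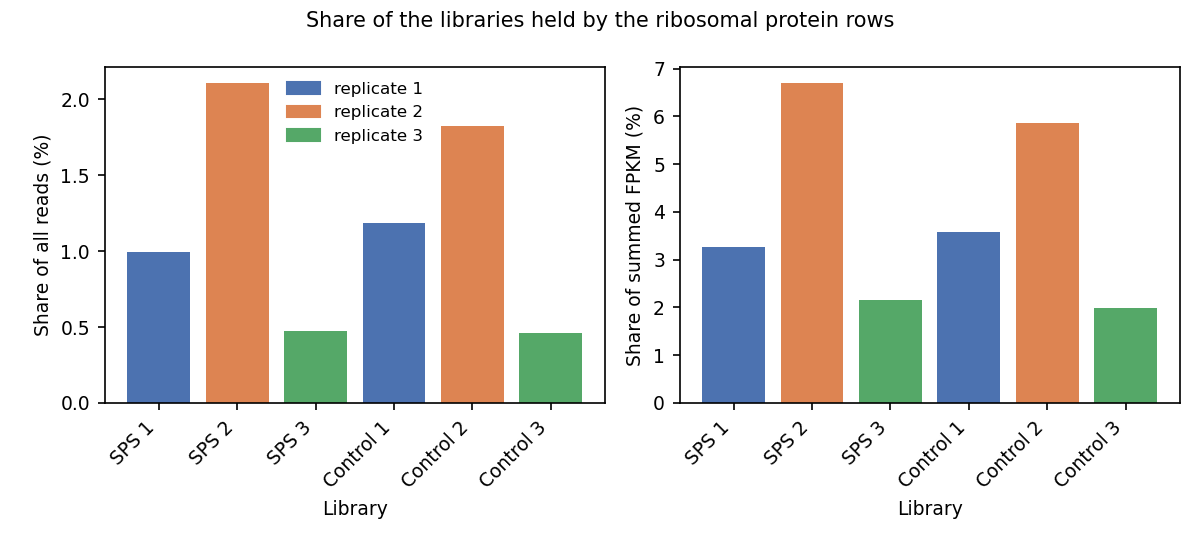
Share of each library held by the 125 ribosomal protein rows, in percent of all reads (left) and of summed FPKM (right), with 1 bar per library, SPS libraries left of Control libraries and colour for replicate number. Replicate 2 is highest and replicate 3 lowest in both groups, at 2.11% and 0.471% of reads in SPS and at 1.82% and 0.464% in Control.

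No ribosomal protein gene passed the test for a difference between SPS and Control. The quasi-likelihood test of edgeR, with p-values adjusted over 12441 genes after Benjamini and Hochberg, called 0 of the 91 ribosomal protein rows that passed the expression filter and 0% of all genes at an adjusted p under 0.05. The smallest adjusted p in the whole table was 1.00. An unadjusted p under 0.05 was reached by 0 of these 91 rows, against 0.338% of all genes (42 genes). DESeq2 also called 0 rows, and 0 of them had an unadjusted p under 0.05, against 0.675% of all genes (84 genes). The median log2 fold change of the 91 rows was 0.00, against −0.02 for all genes, with 48 positive and 43 negative, and single values ran from −0.93 to 2.34. In 0 of the 91 did the SPS libraries all lie above or all below the Control libraries, against 2.94% of all genes tested (1.54% with SPS higher and 1.4% with SPS lower). The median standard error of a log2 fold change was 0.74 for the ribosomal protein rows and 0.56 for all genes, and with the replicate number as a block 0.22 and 0.33.

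The median turned with the choice of libraries. Without SPS replicate 2 it was −0.64, with 6 rows positive and 85 negative, and without Control replicate 3 it was −0.36. Without Control replicate 2 it was 0.43, with 82 positive and 11 negative, and without SPS replicate 3 it was 0.34. Without SPS replicate 1 and without Control replicate 1 it stayed at 0.09 and 0.08. Leaving out both libraries numbered 2 gave −0.23, with 14 positive and 80 negative. In each of these fits 0 rows were called by edgeR. Groups that did not overlap were found for 13 rows without Control replicate 3 and for 7 rows without both libraries numbered 2, where 19.1% and 11.9% of all genes did not overlap.

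Libraries of equal number resembled each other, and the pairs moved differently. In pair 1 the median of the 91 rows was −0.30 on the log2 scale, SPS minus Control, with 11 higher and 80 lower in SPS, while all genes had a median of 0.01 and 50.7% were higher. Of the core genes, 4 were higher and 66 lower in that pair. In pair 2 the median was 0.10, with 57 higher and 34 lower, against −0.10 and 44.9% higher for all genes. In pair 3 it was 0.04, with 50 higher and 40 lower, against 0.00 and 50.2% higher. Nuclear genes of oxidative phosphorylation (63 tested) showed pair medians of −0.36, 0.02 and 0.05, and mitochondrial ribosomal proteins (70 tested) −0.28, 0.03 and 0.03. Pair 1 was the low pair for both of these families too. Proteasome subunits (37 tested) had −0.25, −0.24 and −0.03, low in pair 2 as well as in pair 1.

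**Figure D2:**
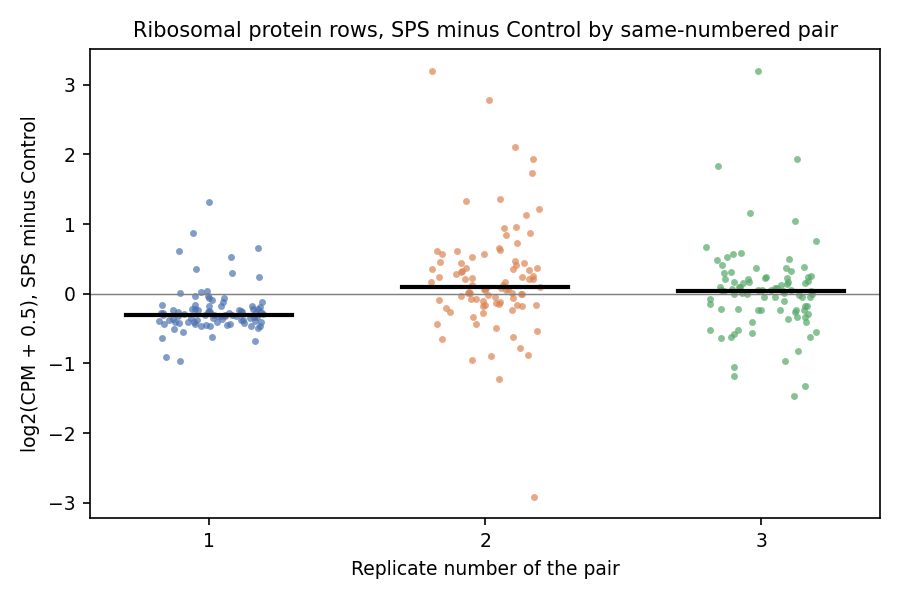
Log2 difference in CPM (with 0.5 added), SPS minus Control, of the 91 tested ribosomal protein rows in each pair of equal replicate number, with 1 point per row and a bar at the median. The points of pair 1 lie mostly below 0, with a median of −0.30, and those of pairs 2 and 3 spread around medians of 0.10 and 0.04.

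In all 3 pairs, 6 rows were higher in SPS and 19 were lower. These 25 rows were 27.5% of the 91, against 24.8% of all genes (11.6% higher and 13.2% lower), so the share in either direction together lay near the background. By direction, 20.9% of the rows were lower and 6.59% higher. Of the 70 core genes 21.4% were lower (15 genes) and 2.86% higher (2 genes). Other families leaned the same way. Of mitochondrial ribosomal proteins 17 of 70 tested were lower and 0 higher, and of nuclear oxidative phosphorylation genes 12 of 63 and 1. Proteasome subunits had 16 of 37 lower and 0 higher. These shares carry no test, since the rows share the libraries and the low values of pair 1. The 6 higher ones were core genes Rpl30 and Rps9, the paralogues Rpl31l4 and Rpl7l1, Rps27a-ps1 and a further copy of Rpl21. Those lower in all 3 pairs included 15 core genes, among them Rpl15, Rpl18, Rpl23a, Rpl24, Rpl27a, Rpl28, Rpl39, Rps10, Rps23 and Rps4x. With the replicate number as a block in edgeR, 0 rows were called by adjusted p, 2 rows had an unadjusted p under 0.05 against 1.38% of all genes, and the median was −0.02. Those 2 rows were Rpl27a, at a log2 fold change of −0.55 (unadjusted p = 0.0226 and adjusted p = 0.967 in edgeR), and Rps27a-ps1, at 0.52 (unadjusted p = 0.0331 and adjusted p = 0.967 in edgeR).

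Rpl27a, a large subunit protein (ENSRNOG00000014214, chromosome 1, 174132797 to 174135816 in the table, whose rat build is not given in the sources used here), was at 185, 184 and 54.2 CPM in SPS replicates 1 to 3 and at 254, 316 and 71.7 CPM in Control replicates 1 to 3. Each SPS library lay below the Control library of its number, but the groups overlapped, since Control replicate 3 was below SPS replicates 1 and 2. Without the block its log2 fold change was −0.60 ± 0.65 (SE; edgeR, unadjusted p = 0.387, adjusted p = 1.00). Rps27a-ps1 is named as a pseudogene of Rps27a and shares its span with another gene. It was at 74.5, 173 and 40.2 CPM in SPS and at 51.3, 136 and 25.1 CPM in Control, again with overlap between the groups.

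Rps9, a protein of the small subunit body, had the smallest p of the rows. It was at 24.3, 76.6 and 33.6 CPM in SPS replicates 1 to 3 and at 15.8, 19.7 and 32.6 CPM in Control replicates 1 to 3, with a log2 fold change of 0.98 ± 0.54 (SE; edgeR, unadjusted p = 0.109, adjusted p = 1.00). Its highest value was in SPS replicate 2 and the pair numbered 3 was level. Without SPS replicate 2 the log2 fold change was 0.36. In the table this row (ENSRNOG00000058909, chromosome 1, 64018124 to 64126611) overlaps the spans of 6 other genes, and the counting of overlapping genes is not given in the sources used here.

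The other rows with the smallest p on the higher side were paralogues and 1 stalk protein. Rpl31l4, a paralogue of Rpl31, was at 15.6, 19.0 and 14.5 CPM in SPS and at 8.32, 16.3 and 3.74 CPM in Control (log2 fold change 0.79 ± 0.62, SE; edgeR, unadjusted p = 0.238, adjusted p = 1.00). The lowest values were those of Control replicates 1 and 3, and the groups overlapped at Control replicate 2. Rps4y2, a paralogue of Rps4x, was at 2.00, 12.3 and 0.539 CPM in SPS and at 2.10, 0.887 and 0.880 CPM in Control, and Rps18l1 was at 13.1, 113 and 8.08 CPM in SPS and at 17.2, 33.7 and 18.9 CPM in Control. Both rested on SPS replicate 2, without which their log2 fold changes were −0.02 and −1.13. On the lower side, beside Rpl27a, Rpl39, a protein at the exit of the peptide tunnel, was at 42.7, 53.7 and 17.8 CPM in SPS and at 58.0, 77.7 and 20.9 CPM in Control. Its log2 fold change was −0.46 ± 0.59 (SE; edgeR, unadjusted p = 0.463, adjusted p = 1.00), each SPS library lay below the Control library of its number, and the groups overlapped. Rps21-ps1, the further copy of Rpl32 on chromosome 6 and Rpl7a completed the 5, with log2 fold changes of −0.86 ± 0.93, −0.79 ± 0.91 and −0.93 ± 1.28 (SE). With a single library left out these ran from −1.81 without SPS replicate 2 to 0.23 without Control replicate 2 for Rps21-ps1, and from −1.13 without Control replicate 3 to −0.35 without Control replicate 2 for the Rpl32 copy. For Rpl7a they ran from −3.38 without SPS replicate 1 to −0.45 without SPS replicate 2. Rpl7a was at 7.17, 0.463 and 0.539 CPM in SPS and at 8.14, 6.74 and 1.10 CPM in Control, low in every library for a core gene.

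Core genes are given next by the roles of their proteins, with 0 of them called by edgeR. For large subunit genes the median log2 fold change was −0.08 (41 tested, 17 positive and 24 negative) and small subunit genes 0.03 (29 tested, 18 positive and 11 negative). Without SPS replicate 2 these medians were −0.66 and −0.72, and without Control replicate 2 they were 0.32 and 0.53. Rplp0, the base of the stalk that recruits translation factors, was at 303, 579 and 208 CPM in SPS and at 396, 476 and 185 CPM in Control (log2 fold change 0.04 ± 0.51, SE). Rplp2, which forms the flexible arms of the stalk with Rplp1, was at 2.27, 63.7 and 0 CPM in SPS and at 3.94, 8.87 and 0 CPM in Control. Its log2 fold change was 2.34 ± 1.97 (SE; edgeR, unadjusted p = 0.270, adjusted p = 1.00) and rested on SPS replicate 2, without which it was −1.82.

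Rpl5 and Rpl11 join 5S ribosomal RNA and, when free of the ribosome, bind the p53 regulator Mdm2. Rpl11 was at 138, 255 and 74.4 CPM in SPS and at 151, 171 and 75.7 CPM in Control, and Rpl5 at 279, 328 and 64.1 CPM in SPS and at 344, 356 and 51.1 CPM in Control. Both followed the order of the replicate numbers, highest in 2 and lowest in 3, in each group. At the exit of the peptide tunnel, 10 genes were tested, 2 positive and 8 negative, with a median log2 fold change of −0.10, against −0.02 for all genes. Without Control replicate 2, 9 were positive and the median was 0.28, and without SPS replicate 2, 0 were positive and it was −0.68. Small subunit proteins along the path of the mRNA and in the head (6 tested of 7 listed) had 5 positive and 1 negative, with a median of 0.12. Without SPS replicate 2 all 6 were negative, with a median of −0.68. They include Rpsa, which is also known as a laminin receptor, at 352, 580 and 202 CPM in SPS and at 396, 453 and 183 CPM in Control, and Rps28, at 42.3, 331 and 21.0 CPM in SPS and at 52.3, 129 and 20.0 CPM in Control. A list of 9 genes, only some of those mutated in human Diamond-Blackfan anaemia, a failure of red cell production, had 7 tested. Of these, 4 were positive and 3 negative, with a median of 0.07 that covers the listed genes only. The median was −0.56 without SPS replicate 2 and 0.41 without SPS replicate 3. Rps19, the gene most often mutated in this anaemia, was at 52.2, 149 and 3.59 CPM in SPS and at 98.8, 82.7 and 5.50 CPM in Control. Its replicate 3 was far below the rest in both groups.

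Among the paralogues, 10 of 20 were tested, with a median log2 fold change of 0.72, 8 positive and 2 negative, against 5956 positive and 6485 negative over all genes. The filter had kept those with reads, their medians in the 3 pairs were −0.15, 0.88 and 0.31, and the group rested on SPS replicate 2. Without that library 3 were positive and 7 negative, with a median of −0.53. Rps27l, a paralogue of Rps27 induced by p53 in human cells, was at 4.99, 45.4 and 1.44 CPM in SPS and at 5.34, 20.4 and 0.880 CPM in Control. Rpl22l1, a paralogue of Rpl22, was at 19.4, 34.3 and 3.59 CPM in SPS and at 22.7, 66.5 and 2.64 CPM in Control, higher in Control in pairs 1 and 2. Rpl7l1, a nucleolar paralogue of Rpl7, was at 16.6, 18.5 and 9.70 CPM in SPS and at 12.9, 11.9 and 8.14 CPM in Control, with a log2 fold change of 0.44 ± 0.50 (SE; edgeR, unadjusted p = 0.401, adjusted p = 1.00). Rpl36al was at 33.0, 52.8 and 16.9 CPM in SPS and at 40.0, 60.0 and 16.3 CPM in Control. The muscle paralogue Rpl3l and the testis paralogues Rpl10l and Rpl39l had 38, 71 and 7 reads over the 6 libraries and were not tested. Rps19bp1 was at 24.6, 75.9 and 5.03 CPM in SPS and at 32.0, 29.8 and 7.70 CPM in Control, with the same order of numbers in SPS as the ribosomal proteins.

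Levels between genes are given in FPKM, which divide by transcript length. The 70 tested core genes ran from 5.87 FPKM for Rpl7a to 1760 FPKM for Rps29, a zinc-binding protein of the small subunit, as means over the 6 libraries, with a median of 294 FPKM. Rps29 was at 1007, 4488 and 487 FPKM in SPS and at 1297, 2872 and 406 FPKM in Control, so its rank came with the same spread between numbers. Rpl41, the shortest ribosomal protein, followed at 1030 FPKM, then Rpl35 at 880, Rps23, a protein of the decoding centre, at 815 and Rps21 at 667 FPKM. Low levels after Rpl7a were those of Rpl7, Rps13, Rplp2 and Rps9, between 45.5 and 72.3 FPKM. Such ranks depend on the length: Rpl7 had 10398 reads in all, at an effective length 2.27 times that of the median tested gene. Rps21 had 2283 reads at 0.039 times that length. The 3 core genes that were not tested were Rpl8, with 3 reads in all libraries together, Rps6, the S6 kinase target, with 26, and Rpl35a with 37.

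Symbols and sequence copies limit what a row counts. RefSeq lists pseudogenes of all 73 core genes, 860 in all, with a median of 11 and up to 36 for Rps2, and how reads that match several copies were shared is not given in the sources used here. In the table the core genes held 96.5% of the reads of the 125 rows, those named as pseudogenes 1.46%, the paralogues 1.33% and the further copies 0.433%. Reads under the symbol Rpl21 were spread over 3 rows with reads, of which the highest held 4231 of 5878 reads, whereas the highest row held 98.1% to 98.5% for Rps2, Rpl32 and Rps29. For Rpl35a and Rpl7a, with only 52 and 267 reads under the symbol, the highest row held 71.2% and 82.4%. For 4 core symbols (Rpl30, Rpl35a, Rpl37 and Rps13) the row lies on another chromosome than the RefSeq gene, so those rows may be copies. Rpl30, one of the 2 core genes higher in SPS in all 3 pairs, is among them, at 35.7, 85.2 and 38.8 CPM in SPS and at 14.0, 62.8 and 33.0 CPM in Control. Rpl37 and Rps13 are among the 15 core genes lower in SPS in all 3 pairs, so that count includes possible copies too. The spans of 14 rows overlap another gene, Rps9 and Rpl37 among them. Of the 34 rows not tested, 13 were at 0 in every library and 21 had few reads.

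The largest differences lay between replicate numbers, within both groups alike. For the median of the 91 rows, 96.0% of the variance of log2 CPM between libraries lay between replicate numbers and 0.822% between SPS and Control, against medians of 73.7% and 5.90% over all genes. There are more replicate numbers than groups, so a larger share between numbers would arise even without any structure. The values over all genes are the like comparison. In 56 rows (61.5%) both libraries numbered 2 were above all the others and both numbered 3 below them, against 10.0% of all genes. Relative to the mean of a gene over the 6 libraries, the median row was at 0.09, 0.99 and −1.18 on the log2 scale in SPS replicates 1, 2 and 3, and at 0.35, 0.94 and −1.23 in Control replicates 1, 2 and 3. The difference between numbers 3 and 1 in SPS and the same difference in Control had a Spearman correlation of 0.87 over the 91 rows, and that between numbers 2 and 1 one of 0.65. These are correlations across genes, which share the libraries and their depth and are not independent.

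**Figure D3:**
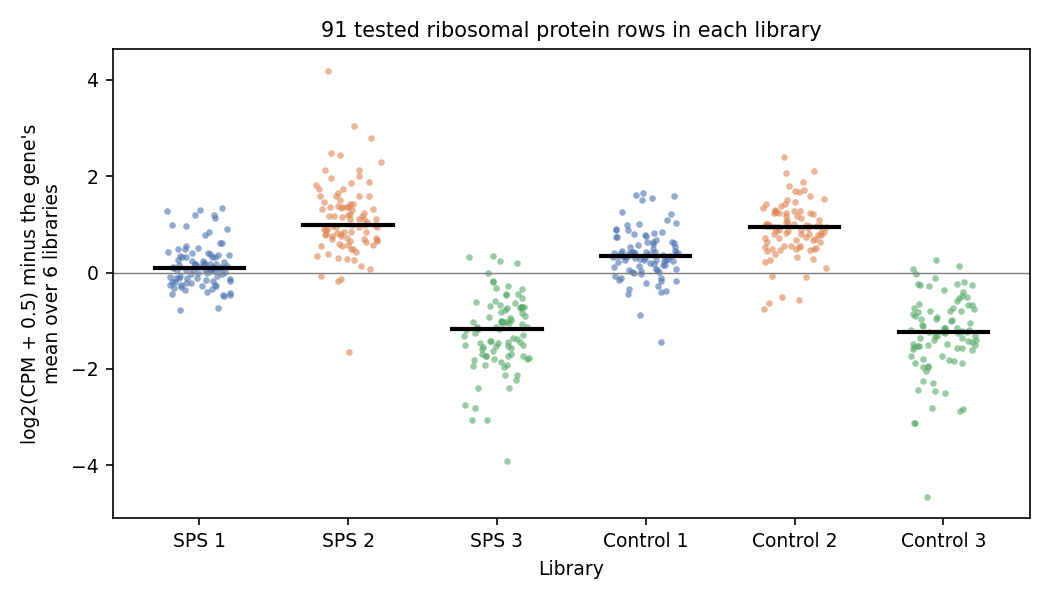
Log2 CPM (with 0.5 added) of each of the 91 tested ribosomal protein rows minus its mean over the 6 libraries, with 1 point per row, a bar at the median, and SPS libraries left of Control libraries. Replicate 2 lies above and replicate 3 below the other libraries in both groups, with medians of 0.99 and −1.18 in SPS and 0.94 and −1.23 in Control.

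The size of this difference varied strongly between ribosomal proteins. Over the 81 rows with more than 3 reads in every library, the highest library held between 1.47 and 51.6 times the CPM of the lowest, with a median of 5.78. Rpl35 (ENSRNOG00000014272, chromosome 3, 23294813 to 23297774), which lies at the tunnel exit, was at 252, 500 and 15.6 CPM in SPS and at 315, 495 and 18.5 CPM in Control. Rps27a, made as a fusion with ubiquitin, was at 107, 163 and 7.54 CPM in SPS and at 166, 175 and 5.72 CPM in Control. In both, replicate 3 of each group was far below replicates 1 and 2. SPS minus Control in pairs 1, 2 and 3 was −0.32, 0.01 and −0.24 on the log2 scale for Rpl35, and −0.63, −0.11 and 0.37 for Rps27a. Rps21 was at 20.8, 195 and 8.08 CPM in SPS and at 40.9, 124 and 0.440 CPM in Control, and the row for Rpl37 at 16.8, 19.7 and 0 CPM in SPS and at 23.1, 31.1 and 0.880 CPM in Control.

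A few core genes shared little of the low level in replicate 3. Rps4x, an X-linked protein of the small subunit, had the smallest spread of the rows, at 171, 191 and 139 CPM in SPS and at 179, 205 and 170 CPM in Control (log2 fold change −0.14 ± 0.30, SE). Rpl10, which completes the large subunit late in its assembly, was at 141, 289 and 167 CPM in SPS and at 165, 264 and 167 CPM in Control. Rps23 was at 168, 435 and 247 CPM in SPS and at 219, 460 and 260 CPM in Control, so its replicate 3 was above replicate 1. Rpl28 and Rpl29 also varied little, as did Rpl6-ps1 and the further copy of Rpl21 on chromosome 13. As means of both groups, 86 of the 91 rows were lower in number 3 than in number 1, the exceptions being Rpl10, Rpl30, Rps9, Rps23 and Rpl6-ps1.

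**Figure D4:**
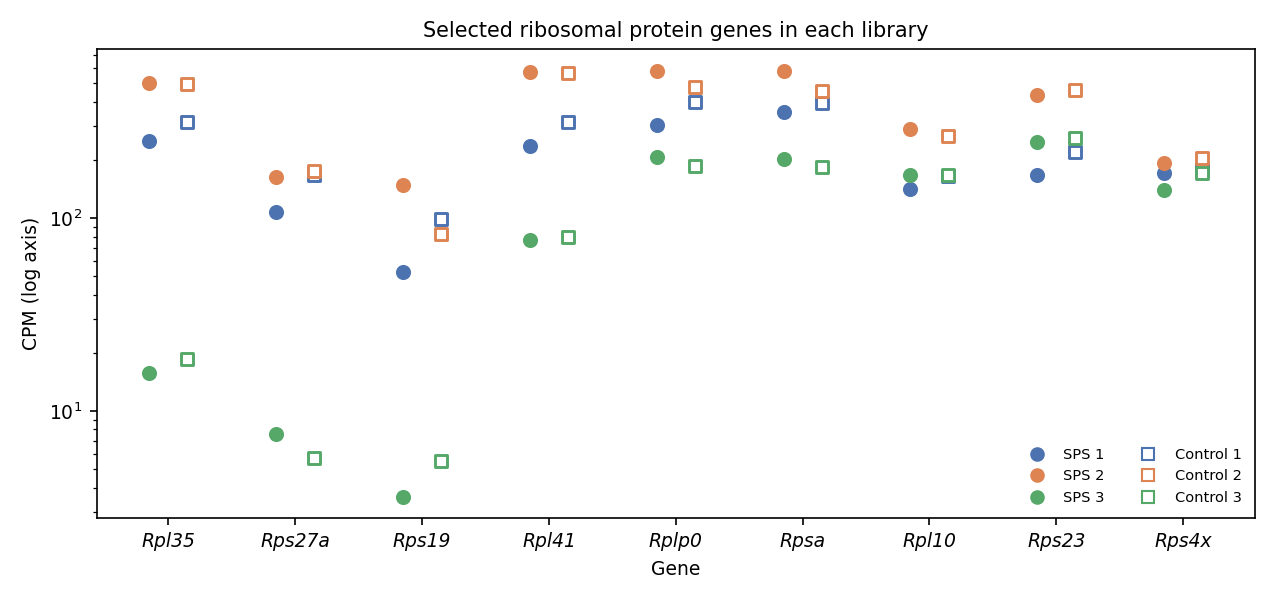
CPM of 9 core genes in each library on a log axis, with filled circles for SPS left of open squares for Control and colour for replicate number. Rpl35, Rps27a and Rps19 are lowest in replicate 3 of both groups, at 15.6, 7.54 and 3.59 CPM in SPS and at 18.5, 5.72 and 5.50 CPM in Control, and Rps4x stays between 139 and 205 CPM in all libraries.

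Transcript length moved with this pattern. Effective length, taken as the ratio of count to FPKM and set relative to the median tested gene, had a median of 0.18 over the ribosomal protein rows. Ribosomal protein rows of relative length under 0.1 (13 rows) had a median difference between numbers 3 and 1 of −1.67 on the log2 scale, and those of 0.1 to 0.2 (39 rows) one of −1.79. Other genes in the same bins had medians of −1.19 and −1.14, and those of relative length over 2.5 a median of 0.96. Between numbers 2 and 1, the medians of rows in these bins were 1.46 and 0.80, against 0.12 and 0.45 for other genes of like length. Within the 91 rows, length and the difference between numbers 3 and 1 had a Spearman correlation of 0.27, against 0.49 over all 12441 genes, again as a description across genes that share the libraries. Rps23 and Rpl35 are of like relative length, at 0.16 and 0.13, and differed between numbers 3 and 1 by 0.40 and −4.01. Markers of several cell types also differed between the numbers. Markers of blood (3 of 5 in the table) summed to 198, 1114 and 716 CPM in SPS replicates 1, 2 and 3 and to 376, 1563 and 438 CPM in Control, those of endothelium (3 of 4) to 106, 241 and 146 CPM in SPS and to 137, 292 and 123 CPM in Control, and those of mural cells and fibroblasts (5 of 5) to 85.3, 258 and 175 CPM in SPS and to 90.2, 407 and 128 CPM in Control. All of these were highest in replicate 2 of each group. Neuronal markers (5 of 5) were highest in replicate 3 and lowest in replicate 2 of each group, at 5821, 2619 and 7727 CPM in SPS and at 5373, 4588 and 8362 CPM in Control. Choroid plexus and oligodendrocyte markers were high in SPS replicate 2 but not in Control replicate 2, at 43.3 and 7523 CPM. The part of transcript length, of mitochondrial share and of these cell types in the levels of ribosomal protein transcripts was not tested.

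**Figure D5:**
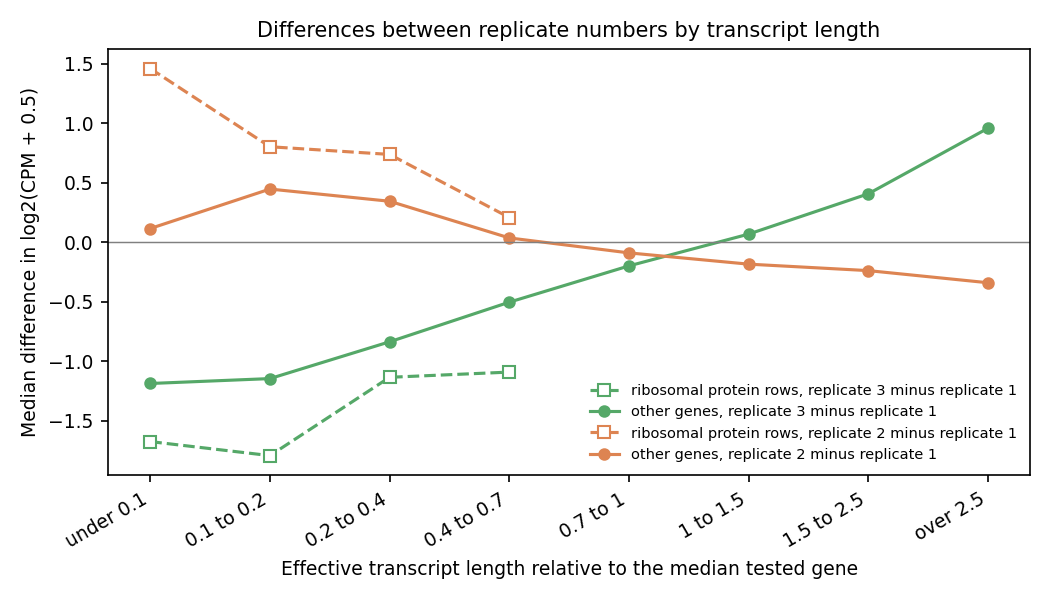
Median log2 difference between libraries numbered 3 and 1 (green) and numbered 2 and 1 (orange), by effective transcript length relative to the median tested gene, for ribosomal protein rows (open squares, bins of 9 to 39 rows) and other genes (filled circles). In the shortest 2 bins the difference between numbers 3 and 1 is −1.67 and −1.79 for ribosomal protein rows, and −1.19 and −1.14 for other genes.

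Other families of short transcripts were set beside the ribosomal proteins. Nuclear genes of oxidative phosphorylation had a median relative length of 0.21 and medians of −1.47 between numbers 3 and 1 and 0.53 between numbers 2 and 1, close to the −1.44 and 0.72 of the ribosomal protein rows. Mitochondrial ribosomal proteins, at a relative length of 0.36, had −1.03 and 0.20, and proteasome subunits, at 0.54, had −0.94 and −0.11. Between SPS and Control the median log2 fold changes of these 3 families were −0.13, −0.07 and −0.17, and 0 of their genes were called by edgeR. Core genes with a TOP run at the start (33 tested) had medians of −1.44 and 0.68 between the numbers, and those with none (23 tested) −1.65 and 0.62. Between SPS and Control their medians were −0.11 and 0.04.

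The wider pathway gave the same count of 0 called genes. Of 25 tested genes for translation factors and other TOP mRNAs, 8 were positive and 17 negative, with a median log2 fold change of −0.11. Eef1a2, the elongation factor of neurons and muscle, was at 859, 565 and 877 CPM in SPS and at 1025, 888 and 939 CPM in Control, and its groups did not overlap (log2 fold change −0.31 ± 0.32, SE; edgeR, unadjusted p = 0.360, adjusted p = 1.00). Genes of ribosome biogenesis (38 tested) had a median of −0.06, and Eif6, which keeps the large subunit from joining the small subunit too early, was at 54.8, 36.8 and 60.7 CPM in SPS and at 62.9, 106 and 68.9 CPM in Control. Its groups did not overlap either (−0.64 ± 0.37, SE; edgeR, unadjusted p = 0.122, adjusted p = 1.00), as in 1.4% of all genes on the lower side. Genes of mTORC1 and S6 kinase signalling (21 tested) had a median of −0.03, with 10 positive and 11 negative. Mlst8, a subunit of mTORC1, was at 50.4, 44.2 and 51.0 CPM in SPS and at 56.0, 63.9 and 75.3 CPM in Control. The groups of Mlst8 did not overlap (log2 fold change −0.42 ± 0.30 SE, unadjusted p = 0.205 in edgeR). Deptor, an inhibitor of mTOR, was at 5.81, 22.9 and 25.9 CPM in SPS and at 4.03, 2.66 and 11.9 CPM in Control. Deptor was higher in SPS in all 3 pairs, with overlap between the groups (1.56 ± 0.81, SE; edgeR, unadjusted p = 0.0922, adjusted p = 1.00). In the 3 lists, in this order, 1, 2 and 1 genes had groups that did not overlap, all with SPS lower, against 1.4% of all genes. Between numbers 3 and 1 these 3 lists had medians of −0.70, −0.53 and 0.47, at relative lengths of 0.56, 0.77 and 1.08.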

How the data were processed

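Per the labels' protocols, RNA depleted of ribosomal RNA was made into stranded libraries and read over 150 cycles. CASAVA 1.8 and HISAT2 appear in the submitters' processing notes, which name hg19 although the identifiers are those of rat. The sources used here do not give the rat build, annotation release, quantifier or use of strand. The deposited table holds FPKM values and estimated counts made by the authors, per the file headers. The deposited counts were scaled: between 99.33% and 99.62% of the values above 0 in a library were whole multiples of a step of its own (0.614 to 1.79), within 0.05 reads, and 0 of 750 values of the ribosomal protein rows were not. They were divided by the step and rounded to whole reads.

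The reads were fitted with edgeR 4.0.16 in R 4.3.3 (TMM, filterByExpr, quasi-likelihood test on group, 2-sided, Benjamini-Hochberg adjustment over 12441 genes). SE is the absolute log2 fold change divided by the square root of F. DESeq2 1.42.0, limma 3.58.1 on log2(FPKM + 1) for genes of mean FPKM of at least 0.5, other scalings and filters, and fits without each library were alternatives. Only the edgeR fit on group, with and without the replicate number as a block, was tested on simulated counts.

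Samples carry the numbers 1 to 3 in the labels of each group. Deviations from group means correlated at 0.43, 0.40 and 0.70 between libraries of equal number and between −0.53 and 0.18 otherwise, so numbers were taken to pair the samples. The 3 deviations of a gene in a group sum to 0, so these values are not independent. Chi-square values per degree of freedom from 54.9 to 151 showed that libraries of a group differ beyond counting error.

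Named genes were a list of role genes and paralogues, the 5 of smallest p on each side, the 3 highest and lowest by FPKM per subunit, the 5 of largest and smallest spread, and the 3 of smallest p in each other list. Others (Rpl30, Rps27a-ps1, Rps28) were chosen after their values were seen. So were genes named without CPM for their direction in the pairs, such as Rpl15, Rpl18, Rpl23a, Rpl24 and Rps10. Not every gene that the rules selected is described, Rpl13a and Rps25 being among those left out. Members and lists were chosen with earlier results of these data known.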

Additional observations from a re-analysis of the deposited data

How the results depend on the processing

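In all 17 alternatives 0 genes and 0 ribosomal protein rows were called by edgeR, DESeq2 or limma. The median log2 fold change of the rows lay between −0.64 and 0.43 when each library was left out in turn, and was −0.23 without both libraries numbered 2. Rows whose groups do not overlap numbered 0 to 13 with a library left out (13 without Control replicate 3, where 19.1% of all genes did so), and 7 without both libraries numbered 2 (11.9% of all genes). The pairing by number, as a replicate block, gave 0 genes, 0 rows and a median of −0.02. By FPKM 7 rows were higher and 17 lower in SPS in all 3 pairs. Of 37 named genes tested, 9 kept their sign in every alternative. Leaving out single libraries, Rplp2 ranged from −1.82 to 3.38, Rps4y2 from −0.021 to 2.43, Rps18l1 from −1.13 to 1.42 and Rps21-ps1 from −1.81 to 0.23. Without both libraries numbered 2, Rplp2 was at −0.80, Rps4y2 at −0.24 and Rps18l1 at −0.78; the cause was not tested. Depth limits the rows with few reads. Medians of role groups and paralogues with libraries left out were added after seeing the data.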
